A study of Mus musculus with 2 samples.

Results

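The 5 genes described here are the metallothioneins Mt1, Mt2 and Mt3, the zinc exporter gene Slc30a1 and the zinc sensor gene Mtf1, out of 32285 genes in the deposited tables. They were chosen with their levels and their detection in gated cells of both libraries known, so those levels are given as a description, with no test. All 5 were found by symbol, each under 1 gene identifier.

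The study treated mouse tumours with cepharanthine, a plant alkaloid, or with vehicle, and profiled their CD45-selected cells by droplet sequencing. CD45 is the pan-leukocyte surface protein encoded by Ptprc. The cepharanthine library carries the title CEP and is called CEP here, and the other, whose title reads "Vehide", is called Vehicle. Per the design text each group had 5 biological replicates, but each group is 1 library and no label ties cells to animals, so every difference below has no replicate check. The sources used here do not give the tumour model, the strain, age and sex of the mice, the dose, the duration of treatment, or anything both groups share beyond the tumour and the selection.

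Metallothioneins are small cysteine-rich proteins that bind zinc and copper in the cytosol and buffer them. MTF-1, the product of Mtf1, senses free zinc, enters the nucleus and switches on Mt1, Mt2 and Slc30a1 through metal response elements in their promoters, and glucocorticoids and low oxygen are also known to raise Mt1 and Mt2. Mt3 was first known as a brain metallothionein that restrains neurite growth, and the product of Slc30a1, ZnT1, moves zinc out across the plasma membrane.

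The CEP library held 9621 barcodes and 88721774 UMIs, with a median of 6621 UMIs per barcode, and the Vehicle library held 9989 barcodes and 81208647 UMIs, with a median of 6236. The 2 libraries shared 136 barcode sequences. After filters 9544 and 9932 cells remained, and cells were assigned to 6 gates by raw UMIs of gating genes: macrophage by C1qa, C1qb and C1qc (4706 CEP and 5160 Vehicle cells), neutrophil by Csf3r and Cxcr2 (1687 and 2143), T cell by Cd3d, Cd3e and Cd3g (172 and 271), dendritic by Flt3 (92 and 98), epithelial by Krt8 and Krt18 (834 and 133), and osteoclast-like by Ctsk and Acp5 (44 and 37). In no gate were 2078 and 2141 cells (21.8% and 21.6%), and 68 and 51 cells passed more than 1 gate. No doublet caller was run.

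The gates were checked against marker genes that did not define them. In the macrophage, neutrophil, dendritic and epithelial gates all 6 markers of the named type were detected in both libraries and summed higher than any other list. The T cell gate showed all 6 T cell markers at 1118 CPM (UMIs per 1000000 UMIs of the gate) in CEP and 1188 in Vehicle, but neutrophil markers summed to 26212 and 40643 CPM there, and 19 and 33 of its cells also passed the neutrophil gate. In the osteoclast-like gate 5 of 6 osteoclast markers were detected, summing to 2045 and 1952 CPM, and Calcr, the calcitonin receptor gene, was at 0. Macrophage markers there summed to 9918 and 6680 CPM and fibroblast markers to 955 and 1485. Neutrophil markers summed to 8293 and 7767 CPM, of which Mmp9, also a known osteoclast gene, gave 7765 and 5256 and S100a8 101 and 788. Ptprc stood at only 3.14 CPM in CEP and 3.15 in Vehicle in the epithelial gate, against 225 and 254 CPM in the macrophage gate, although all cells came from a CD45 selection.

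Mt1, Mt2 and Mt3 lie in a row on chromosome 8 in mm10, all on the + strand: Mt3 (ENSMUSG00000031760) at chr8:94152607-94154146, Mt2 (ENSMUSG00000031762) at chr8:94172664-94173568 and Mt1 (ENSMUSG00000031765) at chr8:94179082-94180327. The gap between Mt3 and Mt2 is 18517 bases and that between Mt2 and Mt1 is 5513 bases. The fourth gene of the cluster, Mt4, known from squamous epithelium, had 1 UMI in CEP and 0 in Vehicle over all kept cells. Slc30a1 (ENSMUSG00000037434) lies at chr1:191906767-191913247 and Mtf1 (ENSMUSG00000028890) at chr4:124802104-124849800, both on the + strand.

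The 250 bases before each gene's start in RefSeq on GRCm38.p6, whose starts of Mt1, Mt2 and Slc30a1 differ from those given above by under 50 bases, are shown for the metallothioneins and Slc30a1 because metal response elements are their textbook link to MTF-1. Capitals mark the core of that element as searched, TGCACNC or TGCGCNC on either strand. All 5 members matched an entry, and Mtf1 held no match.
Mt1, chr8:94178839-94179088, + strand: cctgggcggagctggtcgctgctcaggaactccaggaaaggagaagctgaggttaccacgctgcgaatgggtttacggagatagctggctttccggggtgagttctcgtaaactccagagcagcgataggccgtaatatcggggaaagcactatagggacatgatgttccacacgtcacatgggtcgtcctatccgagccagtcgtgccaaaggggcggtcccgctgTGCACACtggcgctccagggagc
Mt2, chr8:94172368-94172617, + strand: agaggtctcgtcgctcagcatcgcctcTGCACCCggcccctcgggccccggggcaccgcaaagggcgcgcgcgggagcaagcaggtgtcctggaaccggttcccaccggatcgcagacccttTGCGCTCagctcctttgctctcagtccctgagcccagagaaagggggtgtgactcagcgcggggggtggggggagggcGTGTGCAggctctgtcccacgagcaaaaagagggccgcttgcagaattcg
Mt3, chr8:94152357-94152606, + strand: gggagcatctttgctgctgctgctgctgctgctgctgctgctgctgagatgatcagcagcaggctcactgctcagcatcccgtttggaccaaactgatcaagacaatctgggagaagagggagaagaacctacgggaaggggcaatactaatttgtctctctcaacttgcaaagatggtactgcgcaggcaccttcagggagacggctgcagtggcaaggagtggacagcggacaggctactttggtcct
Slc30a1, chr1:191906531-191906780, + strand: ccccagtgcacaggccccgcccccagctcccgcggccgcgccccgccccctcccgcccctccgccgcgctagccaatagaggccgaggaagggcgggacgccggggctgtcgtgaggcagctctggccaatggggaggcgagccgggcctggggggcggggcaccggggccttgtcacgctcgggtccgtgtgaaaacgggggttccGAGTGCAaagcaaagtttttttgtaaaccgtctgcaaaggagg

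Mt2 held 3 matches in this window, Mt1 and Slc30a1 held 1 each, and Mt3 held 0. No match overlapped another. Of 32851 promoters of the same length, 21.4% held at least 1 match and 1.26% held at least 3. With the 50 bases after the start included, the counts were 4 for Mt2, 3 for Mt1, 2 for Slc30a1, 1 for Mt3 and 0 for Mtf1, beside 25.7% of all such windows with at least 1, 1.97% with at least 3 and 0.517% with at least 4. Mt1 thus went from 1 to 3, so the counts depend on where a start is annotated and do not rank the promoters. A match is a string of letters and not a measured site, and its absence says only that these letters are not in the window.

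Mt1 was an abundant transcript of tumour macrophages. In the macrophage gate it stood at 1831 CPM in CEP and 1696 in Vehicle, with a UMI in 97.2% and 97.1% of cells and a median of 13 UMIs per cell in both libraries. The epithelial gate held 997 and 709 CPM, and the osteoclast-like gate 820.4 and 931. The T cell gate held 558 and 718 CPM, the dendritic gate 299 and 400.0, and the neutrophil gate 288 and 208. The macrophage gate was above every other gate in both libraries. Epithelial and osteoclast-like cells changed places between libraries. Over all cells of a gate, the Vehicle T cell gate (718) lay at the level of the Vehicle epithelial gate (709). The CEP neutrophil gate (95% Poisson interval 273 to 303) could not be told from the CEP dendritic gate (265 to 336). These levels moved when cells with at least 10 UMIs of Krt8 and Krt18, or of Col1a1, Col1a2, Col3a1 and Dcn, were left out. The Vehicle T cell gate then stood at 323 CPM, the CEP neutrophil gate at 207 and the CEP dendritic gate at 315. All intervals here cover counting error only.

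**Figure D1:**
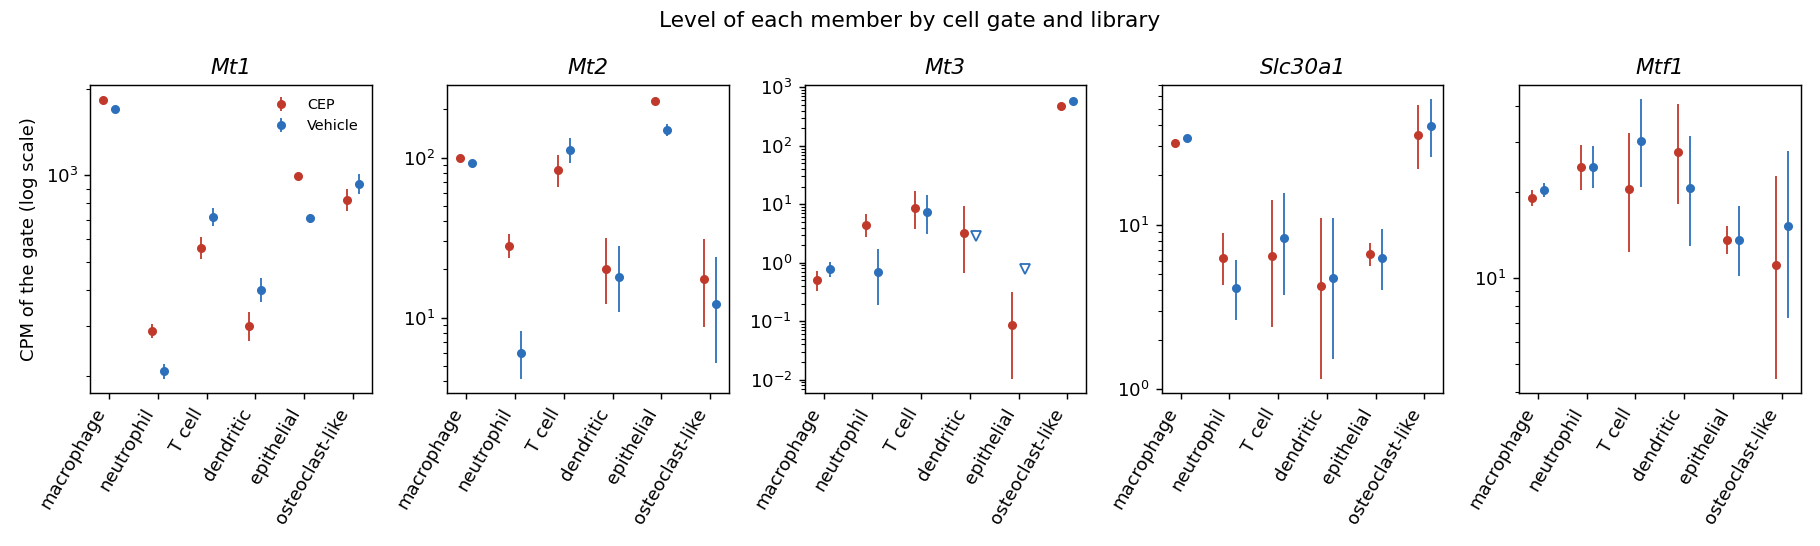
Level of each member in CPM of the gate (log axis) for 6 cell gates and both libraries, with 95% Poisson intervals of the counts; open triangles mark libraries at 0 UMIs, drawn at the level of 3 UMIs. Mt1 is highest in macrophages (1831 and 1696), Mt2 in epithelial cells (226 and 148), Mt3 in osteoclast-like cells (475 and 574), Slc30a1 in macrophages and osteoclast-like cells, and Mtf1 is spread over all gates.

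The share of cells with an Mt1 UMI depends on depth, which ran from a median of 1776 UMIs in CEP neutrophils to 27614 in Vehicle epithelial cells. With every cell thinned to 1000 UMIs, the share with Mt1 was 70.1% of CEP and 67.8% of Vehicle macrophages, 61.4% and 64.9% of osteoclast-like cells, 39.6% and 27.1% of epithelial cells, 21.9% and 18.7% in the T cell gate, 16.5% and 18.9% in the dendritic gate, and 11.2% and 10.1% of neutrophils. Unthinned, the shares were 95.5% and 100% in the osteoclast-like gate, 87.5% and 73.7% in the epithelial gate, 37.2% and 32.1% in the T cell gate, 63.0% and 61.2% in the dendritic gate, and 19.6% and 17.9% in the neutrophil gate. Thinning left out 237 CEP and 216 Vehicle neutrophils and 31 and 28 macrophages as too shallow. No cell type here lacks Mt1 by definition, so how much of the neutrophil level is free RNA was not tested.

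Mt1 was spread unevenly over cells. The 5% of macrophages with the most Mt1 held 22.5% of its UMIs in CEP and 21.9% in Vehicle. In the epithelial gate that share was 39.9% and 37.0%. In the neutrophil gate it was 75.7% and 72.8%, so a few cells carried most of the neutrophil signal. Cells in no gate, with a median depth of 1984.5 and 1918 UMIs, held Mt1 at 1181 CPM in CEP and 784 in Vehicle.

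Mt2, the close relative of Mt1, had its highest level in the epithelial gate, at 226 CPM in CEP (5255 UMIs) and 148 in Vehicle (566 UMIs). The macrophage gate held 99.3 and 92.6 CPM, and the T cell gate 83.3 and 112. The dendritic gate held 20.3 and 17.9 CPM, the osteoclast-like gate 17.4 and 12.1, and the neutrophil gate 28.2 and 5.98. Mt2 was therefore ordered differently from Mt1: in both libraries epithelial cells stood above macrophages for Mt2 and below them for Mt1. Mt1 and Mt2 are similar in sequence, and how the authors' counting treated reads that fit both was not tested.

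Because counts of 3' tags are not per length, the level of Mt1 was not set against that of Mt2 directly; the share of Mt2 in the Mt1 and Mt2 UMIs was compared between gates. Mt2 made up 18.5% of these UMIs in CEP epithelial cells (exact Clopper-Pearson 95% interval 18.1 to 19.0) and 17.3% in Vehicle (16.0 to 18.6). In macrophages it made up 5.15% (5.01 to 5.28) and 5.18% (5.05 to 5.31). In osteoclast-like cells it made up 2.08% (1.04 to 3.69) and 1.29% (0.558 to 2.52), from 11 and 8 Mt2 UMIs. The highest cell held 6 and 2 of these. The intervals of these 3 gates did not overlap within either library, and within each gate the 2 libraries' intervals overlapped. In osteoclast-like cells of exactly 1 gate the share was 0.556% and 1.18%, from 2 and 5 Mt2 UMIs. Dendritic shares, 6.35% (3.87 to 9.75) and 4.29% (2.60 to 6.62), had intervals that overlapped those of macrophages. Of the macrophages with an Mt2 UMI, 99.8% in CEP and 99.7% in Vehicle also had an Mt1 UMI.

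**Figure D2:**
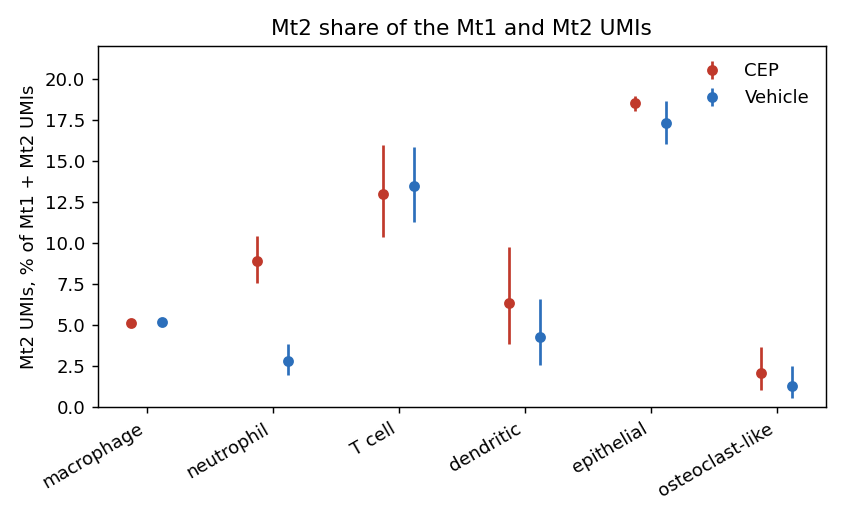
Mt2 UMIs as a percent of Mt1 and Mt2 UMIs by gate and library, with exact 95% binomial intervals that cover counting error only. Epithelial cells sit at 17.3% to 18.5%, macrophages at 5.15% to 5.18% and osteoclast-like cells at 1.29% to 2.08%, while neutrophils differ between libraries (8.92% and 2.79%).

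The neutrophil and T cell gates gave other shares, and both held cells of other types. Mt2 made up 8.92% of the Mt1 and Mt2 UMIs in CEP neutrophils and 2.79% in Vehicle neutrophils. Without cells holding at least 10 UMIs of Krt8 and Krt18, keratins of epithelial cells, or of Col1a1, Col1a2, Col3a1 and Dcn, genes of fibroblasts, these became 5.01% and 2.75%. In the T cell gate the share moved from 12.98% and 13.5% to 9.97% and 7.40%.

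Mt3 was almost confined to the osteoclast-like gate. That gate held 300 of 325 Mt3 UMIs in CEP (92.3%) and 378 of 398 in Vehicle (95.0%), from 44 and 37 cells. Its level there was 475 CPM in CEP (423 to 532) and 574 in Vehicle (517 to 635), with a UMI in 52.3% and 40.5% of cells. Of the 9500 CEP and 9895 Vehicle cells outside the gate, 21 (0.221%) and 18 (0.182%) had an Mt3 UMI, with at most 3 and 2 UMIs in a cell. Median depths were 13957 and 18050 UMIs inside the gate and 6670.5 and 6270 outside.

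Within the osteoclast-like gate Mt3 lay in the cells with osteoclast markers. The 6 markers were Dcstamp and Ocstamp, needed for cell fusion, Atp6v0d2, a subunit of the proton pump, the receptor genes Oscar and Calcr, and Nfatc1, the master transcription factor of the lineage. Cells with at least 5 UMIs of these markers numbered 34 in CEP and 32 in Vehicle and held 298 and 378 Mt3 UMIs. The other 10 and 5 cells of the gate held 2 and 0. Among marker-bearing cells 64.7% in CEP and 46.9% in Vehicle had an Mt3 UMI.

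**Figure D3:**
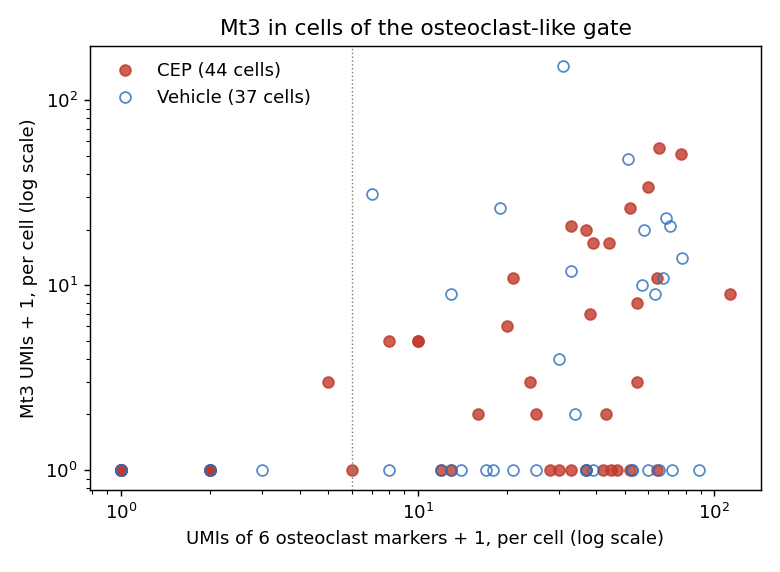
Mt3 UMIs against the summed UMIs of 6 osteoclast markers in each cell of the osteoclast-like gate, both plus 1 on log axes; the dotted line marks 5 marker UMIs. Left of the line 1 CEP cell has Mt3 (2 UMIs), right of it 22 of 34 CEP and 15 of 32 Vehicle cells do, and 1 Vehicle cell reaches 152 UMIs.

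Few cells set the Mt3 level. In cells with a UMI the median was 7 Mt3 UMIs in CEP and 13 in Vehicle, and the highest cell held 54 and 152. Without the highest cell of each library the level was 398 CPM in CEP and 354 in Vehicle, so the log2 ratio of CEP over Vehicle moved from -0.27 (-0.50 to -0.05) to 0.17 (-0.10 to 0.44). Cells of the gate with under 10 C1q UMIs held Mt3 at 694 and 680 CPM, and the 14 and 8 cells that were also in the macrophage gate held 76.1 and 252. In those macrophage-gate cells Mt3 rested on 17 and 41 UMIs, of which the highest cell held 10 and 30.

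The same overlap carried Mt3 in other gates. Of 26 CEP and 48 Vehicle Mt3 UMIs in the macrophage gate, 17 and 41 lay in cells that also passed the osteoclast-like gate, and of 22 and 4 in the neutrophil gate, 20 and 3 did. The dendritic gate held 3 and 0 Mt3 UMIs and the epithelial gate 2 and 0. For Vehicle, 0 of 98 dendritic cells allows a share of up to 3.06% of cells with a UMI, and 0 of 133 epithelial cells up to 2.26%, both counted as 3 cells of the total; the exact Clopper-Pearson upper limits were 3.69% and 2.74%. The T cell gate held 8 UMIs in each library, in 4 of 172 and 7 of 271 cells (2.33% and 2.58%), none of them in the osteoclast-like gate. Outside both of these gates 0.182% of CEP and 0.114% of Vehicle cells had an Mt3 UMI.

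Slc30a1, the exporter gene, was highest in the osteoclast-like gate, at 34.8 CPM in CEP (22 UMIs) and 39.5 in Vehicle (26 UMIs), and in the macrophage gate, at 31.3 (1622 UMIs) and 33.4 (2058 UMIs). Their intervals overlapped in each library, so the order of these gates is not resolved. All other gates lay between 4.10 and 8.23 CPM. Epithelial cells, the gate with the most Mt2, held Slc30a1 at 6.63 CPM in CEP (5.63 to 7.77) and 6.29 in Vehicle (4.03 to 9.36), below the macrophage intervals of 29.8 to 32.8 and 31.97 to 34.9.

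Mtf1, the gene of the zinc sensor, varied less between gates. It stood at 27.8 CPM in CEP and 20.8 in Vehicle in the dendritic gate, 24.6 and 24.6 in the neutrophil gate, 20.6 and 30.2 in the T cell gate, and 19.1 and 20.4 in the macrophage gate. The epithelial gate held 13.6 and 13.6 CPM and the osteoclast-like gate 11.1 and 15.2, the latter from 7 and 10 UMIs. In each library the epithelial interval lay below that of neutrophils. Mtf1 spans 47697 bases, so its level depends on whether the authors counted reads in introns, which the sources used here do not state.

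Mt1 and Mt2 differed most clearly between libraries in the epithelial gate. Mt1 was 1.41-fold higher in CEP (997 against 709 CPM; log2 ratio 0.49, 0.43 to 0.55), and Mt2 1.53-fold higher (226 against 148; 0.61, 0.48 to 0.74). Of CEP cells 87.5% had an Mt1 UMI, and of Vehicle cells 73.7%. Without the highest cell of each library the Mt1 ratio was 0.56, and in cells of exactly 1 gate the ratios were 0.50 for Mt1 and 0.60 for Mt2. With every cell thinned to 1000 UMIs the Mt1 ratio was 0.51 (0.22 to 0.82), while Mt2 was 221 against 195 CPM from 184 and 26 UMIs (0.17, -0.42 to 0.83), short of a 1.5-fold difference, as was the mean of each cell's CPM (0.40). In the same cells the ratio was 0.08 for Slc30a1 (-0.55 to 0.76, from 154 and 24 UMIs) and 0.00 for Mtf1 (-0.43 to 0.45, from 316 and 52). The Slc30a1 interval holds the Mt1 and Mt2 ratios, so whether Slc30a1 differed from them is not resolved. The Vehicle gate rests on 133 cells, and the animals behind them are unknown.

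In macrophages the libraries lay close together. The log2 ratio of CEP over Vehicle was 0.11 for Mt1 (0.10 to 0.12), 0.10 for Mt2 (0.05 to 0.16), -0.09 for Slc30a1 (-0.19 to 0.00) and -0.09 for Mtf1 (-0.22 to 0.03). The median log2 ratio over all measured genes of the gate was 0.02. Genes known to respond to tissue digestion and heat, 12 in number, summed to 6016 CPM in CEP and 5272 in Vehicle macrophages, and to 9433 and 8248 in the epithelial gate. Over 3 equal groups of epithelial cells ranked by this list, Mt1 was 664, 1285 and 1060.5 CPM in CEP and 360, 998 and 802 in Vehicle, highest in the middle group in both. Across cells its r with Mt1 was 0.20 and 0.17 in the epithelial gate and 0.10 and 0.12 in macrophages. The genes of the list were divided in macrophages. Jun (-0.21 and -0.20), Hspa1a (-0.11 and -0.14), Hspa1b (-0.11 and -0.12), Dnajb1 and Hsp90aa1 were negative in both libraries. Junb (0.20 and 0.22), Fosb (0.17 and 0.13), Fos, Egr1, Atf3 and Ier2 were positive in both.

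In neutrophils Mt2 was 4.72-fold higher in CEP (28.2 against 5.98 CPM; log2 ratio 2.24, 1.69 to 2.82), and Mt1 1.38-fold higher (288 against 208; 0.47, 0.36 to 0.58). These differences lay in few cells. In CEP 35 of 1687 cells carried at least 10 keratin or collagen UMIs, and they held 584 of 1419 Mt1 UMIs (41.2%) and 95 of 139 Mt2 UMIs (68.3%); in Vehicle 6 of 2143 cells did, with 18 Mt1 UMIs and 1 Mt2 UMI. Fibroblast markers summed to 1414 CPM in CEP and 10.4 in Vehicle, and epithelial markers to 347 and 57.0. Without those cells Mt1 was 207 and 209 CPM (log2 ratio -0.01, -0.14 to 0.12), and Mt2 10.9 and 5.91 (0.89, 0.21 to 1.58, from 44 and 34 UMIs).

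**Figure D4:**
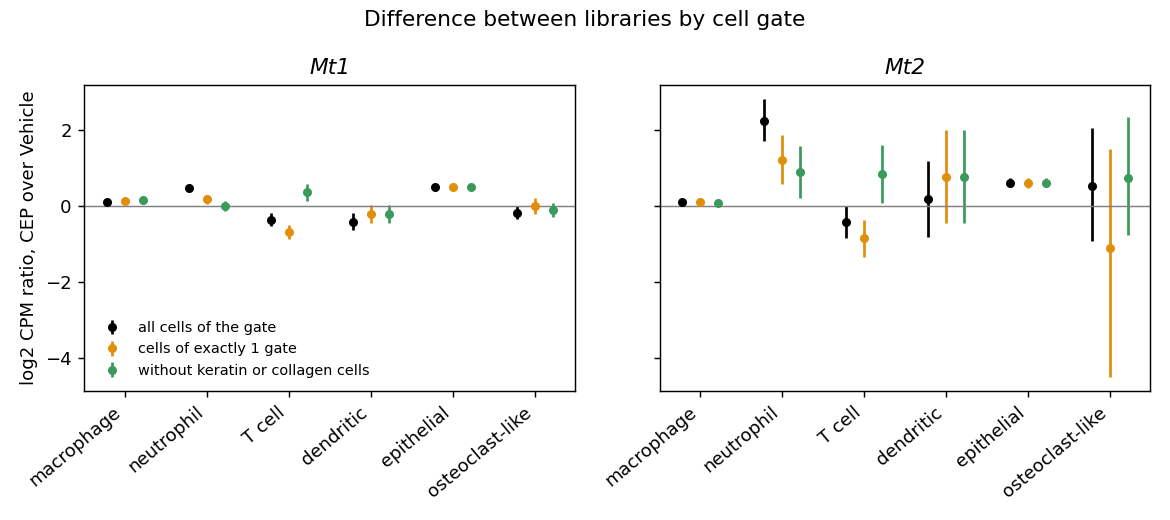
Log2 ratio of CPM, CEP over Vehicle, for Mt1 and Mt2 in 6 gates, with 95% counting intervals, over all cells of a gate, over cells of exactly 1 gate, and without cells holding at least 10 keratin or collagen UMIs. In the epithelial gate keratin defines the cells, so the last setting used collagen alone and left out 2 CEP cells and 0 Vehicle cells. The epithelial values over all cells were 0.49 (Mt1) and 0.61 (Mt2), the neutrophil Mt1 value goes from 0.47 to -0.01, and the T cell Mt1 value changes sign.

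In the T cell gate Mt1 was lower in CEP (558 against 718 CPM; log2 ratio -0.36, -0.53 to -0.20), but 1 Vehicle cell held 443 of 785 Mt1 UMIs (56.4%) and 87 of 122 Mt2 UMIs (71.3%). That cell had 96 UMIs of the 4 fibroblast genes, 2 Cd3 UMIs and 0 Ptprc UMIs. Without the highest cell of each library the ratio was 0.62 for Mt1 (0.41 to 0.83) and 1.01 for Mt2 (0.38 to 1.65). Without cells of keratin or collagen UMIs Mt1 was 413 and 323 CPM. In the dendritic gate the Mt1 ratio was -0.42 (-0.64 to -0.20; 280 and 424 UMIs), of which 1 Vehicle cell with 283 keratin UMIs held 56. In the osteoclast-like gate it was -0.18 (-0.35 to -0.01).

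Counted by a 1.5-fold difference and at least 50 UMIs over both libraries, few of the members stood apart, and since the members were chosen with these values known, nothing is read from the counts. In the epithelial gate 1 of 4 measured members, Mt2, was higher and 0 were lower, beside 3.4% and 3.57% of all measured genes. In the macrophage gate 0 of 5 were higher and 1, Mt3, was lower, beside 6.46% and 1.35%; that value of Mt3, 0.502 against 0.779 CPM (log2 ratio -0.64, -1.38 to 0.08), rests on the overlap with the osteoclast-like gate, and in cells of exactly 1 gate it was 0.61 (-0.98 to 2.27). In the neutrophil gate 2 of 4 were higher, Mt2 and Slc30a1 (6.29 against 4.10 CPM; 0.62, -0.20 to 1.45), and 0 lower, beside 22.1% and 2.07%. In the T cell gate 0 of 3 were higher and 0 lower, beside 6.92% and 7.2%. The dendritic gate gave 0 and 0 of 1, beside 4.69% and 4.67%, and the osteoclast-like gate 0 and 0 of 2, beside 5.55% and 6.46%.

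Across epithelial cells, Mt2 was the gene most like Mt1 of 10536 ranked, with a Pearson r across cells of 0.86 in both libraries (834 and 133 cells). Next came Ndrg1 (0.56 in CEP and 0.55 in Vehicle), Bnip3 (0.52 and 0.51), Higd1a (0.48 and 0.54), Ero1l (0.46 and 0.52), Gapdh (0.41 and 0.43), Ankrd37 (0.41 and 0.50), Fam162a (0.40 and 0.50), Adm (0.43 and 0.39) and Pgk1 (0.40 and 0.39). Of these 10 genes 6 belong to a list of 12 genes induced by low oxygen, namely Ndrg1, Bnip3, a mitophagy receptor, Ero1l, an oxidase of the endoplasmic reticulum, Ankrd37, Adm, the gene of adrenomedullin, and Pgk1, a glycolytic kinase. The r values compare cells of the same library that share a depth and a denominator, and are a description. They say nothing of shared control.

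Epithelial cells were split into 3 groups of equal size by their summed level of the 12 hypoxia-induced genes, which include none of the members. In CEP, Mt1 was 394 CPM in the low, 516 in the middle and 2177 in the high group, and in Vehicle 261, 500.0 and 1360. Mt2 was 88.3, 115 and 498 CPM in CEP and 57.9, 116 and 270 in Vehicle. Median depths were similar, 26988, 27757 and 25212 UMIs in CEP and 24352, 29448 and 28052 in Vehicle. The highest cell of the high group held 3.69% of its Mt1 in CEP and 12.4% in Vehicle. The step from the middle to the high group exceeded the other step in both libraries. The hypoxia list itself summed to 2936 CPM in CEP and 2843 in Vehicle over the gate, and a list of 8 glucocorticoid-induced genes to 957 and 745. Of 7 measured glucocorticoid genes, 6 had a log2 ratio higher than -0.03, the middle value for the whole gate (list median 0.19). Only 1 reached 1.5-fold. Ratios higher than -0.03 were also found for 8 of 12 hypoxia genes and 8 of 12 digestion and heat genes (list medians 0.05 and 0.15). They were found for 10 of 13 mitochondrial transcripts, 5 of 9 copper handling genes and 3 of 8 NRF2 targets. The glucocorticoid list was thus not alone in this, and whether it differed from the others was not tested.

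**Figure D5:**
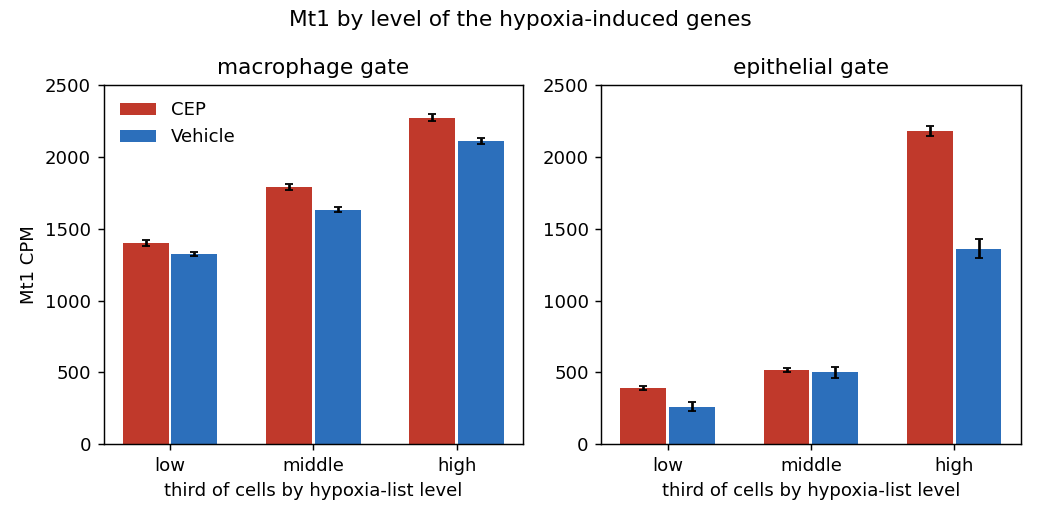
Mt1 level in CPM (bars, with 95% Poisson intervals) in 3 equal groups of cells ranked by the summed level of 12 hypoxia-induced genes, for the macrophage and the epithelial gate and both libraries. In macrophages Mt1 goes from 1400 to 2272 (CEP) and 1324 to 2110 (Vehicle), and in epithelial cells from 394 to 2177 and from 261 to 1360.

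With all cells counted, the difference between libraries in the epithelial gate was unequal over these groups. The high group held Mt1 at 2177 CPM (2143 to 2211) in CEP and 1360 (1296 to 1426) in Vehicle, the middle group 516 (500.5 to 532) and 500.0 (463 to 539), and the low group 394 (380.5 to 408) and 261 (233 to 291). Group limits were set within each library, and the median level of the hypoxia list in the high group was 49.8 UMIs per 10000 in CEP and 42.6 in Vehicle. How far that gap bears on the Mt1 values was not tested. In Vehicle 1 cell held 19.4% of the Mt1 UMIs of the low group, and 1 cell 18.8% of those of the middle group. In CEP these shares were 4.92% and 4.65%. The Vehicle levels of these groups, of 45 and 44 cells, thus lean on single cells. By the glucocorticoid list, Mt1 was 490.5, 1226 and 1322 CPM over the 3 groups in CEP and 276, 827 and 1100.1 in Vehicle. Across cells, the r of Mt1 with the summed list was 0.51 in CEP and 0.48 in Vehicle for the hypoxia genes. For the glucocorticoid genes it was 0.29 and 0.29, and for 8 targets of the oxidative stress factor NRF2 0.02 and 0.07. For the zinc importers it was -0.19 and -0.16, for the copper handling genes -0.22 and -0.10, and for the zinc exporters 0.04 and -0.008. Among the NRF2 targets Hmox1 (0.32 and 0.29) and Gclc (0.08 and 0.03) were positive in both libraries. Txnrd1, Srxn1, Gclm, G6pdx and Nqo1 were negative in both, and Slc7a11 (-0.02 and 0.17) changed sign. The glucocorticoid genes were divided. Dusp1 (0.17 and 0.36), Sgk1 (0.30 and 0.16), Klf9 (0.23 and 0.15) and Per1 (0.16 and 0.25) were positive in both libraries. Fkbp5 (-0.10 and -0.17) and Tsc22d3 (-0.04 and -0.004) were negative in both, and Cebpd (0.11 and -0.05) changed sign. By depth the CEP groups ran 1491, 1142 and 704 CPM, and the Vehicle groups 903, 605 and 707.

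In macrophages the relations were weaker. Mt2 again ranked highest of 8873 genes, at r of 0.50 in CEP and 0.52 in Vehicle, followed by Cdkn1a, a cell cycle inhibitor, at 0.31 and 0.31. The next 8 were Basp1, Mif, Hilpda, Il1b, Trf, Vegfa, Junb and Plaur, from 0.26 for Basp1 in Vehicle down to 0.20 for Plaur in CEP. Weak correlations in sparse counts are no finding. By the hypoxia list, macrophage Mt1 was 1400, 1790 and 2272 CPM over the 3 groups in CEP and 1324, 1631 and 2110 in Vehicle, and Mt2 was 59.2, 80.0 and 157 in CEP and 52.6, 72.4 and 151 in Vehicle. By the glucocorticoid list Mt1 ran 1811, 1868 and 1811 in CEP and 1564, 1749 and 1767 in Vehicle macrophages.

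Across the 12 sums of gate and library, the genes whose log2 levels followed Mt1 most closely were Cebpzos (r of 0.96), Dennd1a (0.95), Nudt19 (0.93), Lgals3bp (0.92) and Fads1 (0.91), of 13874 ranked. Slc30a1 ranked 201 with 0.78 and Mt2 ranked 1559 with 0.61. Mt3 had 0.11 and Mtf1 -0.47. Both libraries enter each gate, so the 12 points are not independent. Across cells within a gate the r with Mt1 was smaller, but single cells hold sparse counts, so its size cannot be set against that across sums. For Slc30a1 it was 0.13 in CEP and 0.13 in Vehicle macrophages (rank 76 of 8873), and 0.11 and -0.008 in epithelial cells (rank 2485 of 10536). For Mtf1 it was 0.01 and 0.002 in macrophages (rank 2016), and -0.09 and 0.004 in epithelial cells (rank 6522). Only 24.2% of CEP and 26.7% of Vehicle macrophages had an Slc30a1 UMI.

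The other zinc transporters were read from lists of SLC30 exporters and SLC39 importers. In macrophages the exporters Slc30a9 (33.2 CPM in CEP and 33.9 in Vehicle) and Slc30a7 (31.9 and 35.1), the latter a Golgi transporter, stood at the level of Slc30a1. The importers Slc39a7 (67.7 and 62.6), of the endoplasmic reticulum, and Slc39a1 (52.4 and 51.9), of the plasma membrane, were the highest of their list. Of all measured genes in macrophages, 6.46% were at least 1.5-fold higher in CEP and 1.35% lower. Of 6 measured exporters 1 was at least 1.5-fold higher in CEP and 0 lower, and of 12 importers 1 was higher and 0 lower. These were Slc30a4 (4.98 against 2.16 CPM; log2 ratio 1.21) and Slc39a4 (2.39 against 0.698; 1.78), both of which stood at 27.1 to 46.5 CPM in the epithelial gate. Without cells of keratin or collagen UMIs 0 of 6 and 0 of 12 passed, beside 1.49% higher and 1.41% lower of all genes, and Slc30a4 was 2.35 against 1.88 CPM (0.32) and Slc39a4 0.791 against 0.590 (0.42).

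In the neutrophil gate 5 of 9 measured importers and 2 of 5 exporters were higher in CEP and 0 lower, beside 22.1% and 2.07% of all measured genes. The median log2 ratio was 0.60 for the importers and 0.12 for all genes. The transporters that were higher were Slc39a4 (1.05), Slc39a6 (0.78), Slc39a10 (0.60), Slc39a13 (1.10), Slc39a14 (0.81), Slc30a1 (0.62) and Slc30a5 (0.72). Without cells of keratin or collagen UMIs 0 of 6 importers and 0 of 4 exporters were higher, beside 2.71% of all genes higher and 3.08% lower. Slc30a1 is not among those 4, because its 25 and 23 UMIs fell short of the minimum of 50; its ratio there was 0.63 (6.21 against 4.001 CPM). Slc39a4 and Slc39a10 fell short in the same way, with ratios of 0.15 and -0.37. The 13 mitochondrial transcripts summed to 6776 CPM in CEP and 4400 in Vehicle neutrophils. In the epithelial gate 0 of 6 exporters and 1 of 10 importers were higher and 0 lower, beside 3.4% and 3.57% of all measured genes. That importer was Slc39a11 (6.07 against 3.67 CPM; 0.73, -0.07 to 1.63, from 141 and 14 UMIs).

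Importers took their highest share of a gate's UMIs in osteoclast-like cells. The 14 SLC39 genes summed to 467 CPM in CEP and 454 in Vehicle there, against 239 and 232 in macrophages and 314 and 322 in epithelial cells. Slc39a1 (179 and 137 CPM) and Slc39a13 (112 and 92.6), both named after their values were seen, stood above their macrophage levels of 52.4 and 51.9 and of 15.5 and 13.9.

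Of the copper handling genes, 9 measured in macrophages and 9 in epithelial cells, 0 were 1.5-fold higher or lower in CEP in either gate. Of all measured genes 6.46% were higher and 1.35% lower in macrophages, and 3.4% and 3.57% in the epithelial gate. Atox1, the cytosolic copper chaperone, stood at 729 and 738 CPM and Cox17, the chaperone for cytochrome oxidase, at 195 and 194 in macrophages. In neutrophils 2 of 8 were higher in CEP and 0 lower, beside 22.1% and 2.07% of all measured genes. The 2 were Ccs (20.9 against 11.8 CPM, log2 ratio 0.83) and Sod1 (26.6 against 14.7, 0.86). Without cells of keratin or collagen UMIs 0 of 8 were higher, beside 2.71% of all genes higher and 3.08% lower.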

How the data were processed

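Per the file headers, the authors' deposited matrices hold raw UMI counts per gene and barcode with no normalization, made with Cell Ranger 7.1.0; the submitters' processing notes name Cell Ranger 5.0.1 and mm10. Per the labels, droplet 3' chemistry was used. Cells needed 200 or more detected genes and a mitochondrial share of no more than 15%, which left 9544 in CEP and 9932 in Vehicle. Gates used raw UMIs: macrophage, C1q at least 10; neutrophil, Csf3r and Cxcr2 at least 1 and C1q under 3; T cell, Cd3 at least 2 and C1q under 3; dendritic, Flt3 at least 1 and C1q under 10; epithelial, Krt8 and Krt18 at least 10 and C1q under 10; osteoclast-like, Ctsk and Acp5 at least 3 each. UMIs were summed over a gate and divided by its UMIs. Levels carry exact Poisson, shares exact binomial and ratios exact conditional binomial 95% intervals. They were computed with scipy 1.17.1 and numpy 2.4.6 under Python 3.11.15. Only the ratio interval was tried on simulated data. Those were Poisson counts without clustering of UMIs by cell, so how it performs on clustered counts was not tested. All these intervals cover counting error only. No test between groups was made, since each group is 1 library.

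The members, gene lists and markers were chosen with earlier results of these data known. Named were all members, transporter and copper genes at least 1.5-fold apart in the macrophage, neutrophil or epithelial gate plus the 2 highest of each list in macrophages, and the genes whose log2(1 + UMIs per 10000) correlated best with Mt1 (10 per gate, among genes in at least 5% of cells, ranked by the lower r; 5 across gate sums). For each ratio 7 alternatives were planned, and 2 were added after the data were seen: leaving out the cell highest in the gene, and leaving out cells with keratin or collagen UMIs. Figures were drawn with matplotlib 3.10.9.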

Additional observations from a re-analysis of the deposited data

How the results depend on the processing

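Each log2 ratio of CEP over Vehicle was recomputed under the alternatives, and each Mt1 value that moved beyond the counting interval follows; the cause was not tested. For Mt1 in macrophages (0.11) the ratio was 0.12 with cells thinned to 1000 UMIs, 0.091 without the top 8% of barcodes by UMIs, 0.13 without mitochondrial, ribosomal and haemoglobin genes in the denominator, 0.15 without cells of keratin or collagen UMIs and 0.13 as a mean of each cell's CPM. For Mt1 in neutrophils (0.47) it was 0.049 thinned, 0.34 without the top 8%, 0.17 in cells of exactly 1 gate, -0.011 without cells of keratin or collagen UMIs and -0.0065 as a mean over cells. For Mt1 in the T cell gate (-0.36) it was -0.078 thinned, 0.55 without the top 8%, -0.70 in cells of exactly 1 gate, 0.62 without the highest cell, 0.36 without cells of keratin or collagen UMIs and -0.18 as a mean over cells. In the dendritic gate (-0.42) it was 0.062 thinned and -0.061 as a mean over cells. In the epithelial gate (0.49) it was 0.61 without the top 8%, 0.56 without the highest cell and 0.39 as a mean over cells. In the osteoclast-like gate (-0.18) it was -0.46 without the top 8%.

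Mt3 in the macrophage gate (-0.64) changed sign in 4 settings: 2.20 without the top 8%, 0.61 in cells of exactly 1 gate, 0.079 without the highest cell and 0.21 as a mean over cells. Of 54 values for Mt1 in these settings 32 stayed within the counting interval, of Mt2 41 did and 13 moved, among them epithelial Mt2 (0.61; 0.17 thinned, 0.40 as a mean over cells) and neutrophil Mt2 (2.24; 1.15 thinned, 1.04 as a mean over cells). Besides these, 4 values of Mt3, 3 of Slc30a1 and 1 of Mtf1 moved.

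No paired analysis was possible because each group is 1 library and no replicate numbers are given. Depth limits Mt3 outside the osteoclast-like gate and Slc30a1 in the small gates, each with under 10 UMIs per library in the dendritic gate. Free RNA, doublets and the makeup of each gate were not separated from the members' levels, and the animals within a library cannot be told apart.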

Other observations

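Mt3 UMIs in the T cell gate were few but more frequent than in other cells outside the osteoclast-like gate. The gate held 1.81% of CEP and 2.74% of Vehicle cells outside the osteoclast-like gate, and 4 of the 21 and 7 of the 18 such cells with an Mt3 UMI. None of these cells held keratin or collagen UMIs at the level of 10. The T cell gate also carries neutrophil markers at 26212 and 40643 CPM, and which of its cells express Mt3 was not tested.

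Atox1, named after its values were seen, stood at 1988 CPM in CEP and 2013 in Vehicle in the dendritic gate, above its macrophage level of 729 and 738 in both libraries.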
